A study of Mus musculus with 33 samples.

Results

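The subunits of condensin and cohesin were examined in single mouse heart cells sorted by a reporter of the cell cycle. They are the 10 genes whose symbols match the row names Smc2, Smc4, Ncapd2, Ncapg, Ncaph and Ncapd3 (condensin) and Smc1a, Smc3, Rad21 and Stag2 (cohesin), of 14862 gene rows. All 33 cells came from the ventricles of mice carrying mAG-hGem, the green geminin fusion of the FUCCI reporter, which is present from S phase to mitosis. The groups are 10 mAG-hGem positive and 11 negative cells at embryonic day 14.5 (E14.5), and 6 positive and 6 negative cells at postnatal day 5 (P5). The labels call every cell a cardiomyocyte, accepted by PCR for Tnnt2 and for the absence of a transcript of other cardiac cells, and they state no further genotype, strain, sex or animal. Each group is therefore 1 sample, and no test between groups is possible.

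Condensin and cohesin are ring-shaped ATPases built on a pair of SMC (structural maintenance of chromosomes) proteins. Condensin, with Smc2 and Smc4 as its SMC pair, folds mitotic chromosomes into rods. Condensin I adds Ncapd2, Ncapg and Ncaph, whereas condensin II adds the related Ncapd3, Ncapg2 and Ncaph2. Cohesin, with Smc1a and Smc3 closed by the kleisin Rad21 and bound by Stag2 or Stag1, holds sister chromatids together from S phase to anaphase and also extrudes chromatin loops in interphase, so it is used in cells that do not divide. Heart muscle cells divide in the embryo and largely leave the cell cycle soon after birth.

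Totals per cell ran from 2545036 to 38465225 counts, with a median of 12807230 counts. The cells at E14.5 carried cardiomyocyte transcripts. The summed CPM of 11 cardiomyocyte markers ran from 15711 to 45712 in positive and from 18024 to 47544 in negative cells. One E14.5 negative cell, N10 (cells are named by their titles), also had 46775 CPM of fibroblast and mural markers, above its 23387 CPM of cardiomyocyte markers. The P5 groups differed in identity as well as in reporter signal. The 6 P5 negative cells had only 0.553 to 3293 CPM of cardiomyocyte markers, against 317.8 to 32201 CPM of the 6 endothelial markers. Of the 11 cardiomyocyte markers, only Myh7 was at 0 in all 6 cells. Of these cells, 3 were led by endothelial markers, L1N3 and L2N10 by red blood cell markers, and L2N12 by fibroblast and mural markers. L1N3 and L2N10 also had 21607 and 9791 CPM of endothelial markers. One P5 positive cell, L2P12, was led by endothelial markers at 13402 CPM and had 113.8 CPM of cardiomyocyte markers. The part of these other cell types in the P5 values was not tested where no value without them is given.

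Promoter letters of the condensin genes were read for elements known from genes of the late cell cycle. Of the 10 members, 7 had a RefSeq window of 250 bases before the start (GRCm38.p6), 8 windows in all, Ncapd3 having 2. The motifs searched on both strands were the CHR element TTTGAA and its variant TTCGAA, which MuvB complexes bind, the CCAAT box of NF-Y, and the E2F-type TTTCCCGC and TTTGGCGC, none of which overlapped another in these windows. The parts outside annotated exons are shown for Smc2, Ncapd2 and Ncapg, the 3 of the 7 whose first window holds TTTGAA, and for Ncaph, which was also higher in E14.5 positive cells and holds none of the 5 motifs. Capitals mark the matches, with TTCAAA and ATTGG the same motifs on the other strand. Smc2 is at chr4:52438971-52439220 (plus strand), Ncapd2 at chr6:125191702-125191800 (minus strand), Ncapg at chr5:45669709-45669918 (plus strand) and Ncaph at chr2:127133955-127134204 (minus strand), each printed 5′ to 3′.
Smc2: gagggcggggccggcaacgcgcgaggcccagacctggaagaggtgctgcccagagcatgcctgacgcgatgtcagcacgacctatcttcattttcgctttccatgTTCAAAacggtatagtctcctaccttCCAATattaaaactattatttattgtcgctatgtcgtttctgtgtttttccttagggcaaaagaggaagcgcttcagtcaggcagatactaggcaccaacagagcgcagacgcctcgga
Ncapd2: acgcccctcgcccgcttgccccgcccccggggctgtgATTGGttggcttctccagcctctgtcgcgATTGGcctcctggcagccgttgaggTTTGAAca
Ncapg: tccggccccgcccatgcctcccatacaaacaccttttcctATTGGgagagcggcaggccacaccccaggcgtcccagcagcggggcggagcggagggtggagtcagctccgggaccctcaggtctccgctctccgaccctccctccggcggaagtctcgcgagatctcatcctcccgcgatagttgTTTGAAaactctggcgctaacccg
Ncaph: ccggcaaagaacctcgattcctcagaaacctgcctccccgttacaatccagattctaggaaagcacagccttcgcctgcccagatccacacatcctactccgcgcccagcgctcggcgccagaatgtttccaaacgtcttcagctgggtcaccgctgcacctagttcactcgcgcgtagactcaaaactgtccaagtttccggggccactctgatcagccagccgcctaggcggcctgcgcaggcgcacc

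TTTGAA begins 145 bases before the start in Smc2, 123 in Ncapd2 and 30 in Ncapg, and it was also found 249 bases before the start in the second window of Ncapd3. CCAAT was found in Smc2, Ncapd2, Ncapg and Smc1a. Ncapd2 has 3 CCAAT matches and, 8 bases before the start, TTTGGCGC; the latter and the CCAAT match 48 bases before the start lie in the part not shown. Smc3, like Ncaph, had no match. Over 32851 promoters of this length, TTTGAA was in 15.99%, TTCGAA in 1.34%, CCAAT in 33.8%, TTTCCCGC in 0.895% and TTTGGCGC in 0.417%. Matches to such short motifs are common and are given as a description of these letters.

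The first comparison sets E14.5 positive against E14.5 negative cells, cells of 1 age sorted by the reporter. Cells that lack mAG-hGem include cells in G1 as well as cells out of the cycle. One negative cell, N24, had more S phase transcripts than any positive cell, 16724 against at most 13553 CPM, and N10 was led by fibroblast and mural markers. The 5 condensin I genes, its SMC pair included, were higher in positive cells, the cohesin members Smc1a and Rad21 were also higher, and Ncapd3, Smc3 and Stag2 lay within 2-fold. Of the 10 members, 7 were at least 2-fold higher and 0 were at least 2-fold lower. Among the 12633 genes with at least 10 counts, 22.4% were at least 2-fold higher and 29% at least 2-fold lower. The median log2 ratio was 3.22 over the 6 condensin members, 1.30 over the 4 cohesin members and -0.16 over all genes. Positive cells also carried more transcripts of the cell cycle itself: 24 G2/M genes summed to 1304 to 15192 CPM in them and to 2.67 to 2188 CPM in negative cells.

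The SMC pair of condensin separated the groups in nearly all cells. Smc2 was at a lowest, median and highest 179.99, 504 and 1287 CPM in the 10 positive cells, and at 0, 0.214 and 261 CPM in the 11 negative cells. All positive cells but G2, G27 and G29 were above the highest negative cell, N24, which supplied 75.8% of that group's Smc2 counts. Summed counts gave 565 against 41.1 CPM, a log2 ratio of 3.78 (interval 3.75 to 3.81), or 5.64 without N24. Smc4, its partner, was at 469, 1494 and 2911 CPM in positive cells and at 0.582, 114 and 621 CPM in negative cells. Only G2 among the positive cells was below N24 and N3, the highest negative cells. The log2 ratio was 3.22 (3.20 to 3.24), or 3.81 without N24. Both SMC genes reached 10 CPM in 10 of 10 positive and in 3 of 11 negative cells (N8, N21 and N24), and thinning to 1 depth left 9 of 9 and 3 of 9.

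Ncapg, a HEAT-repeat subunit of condensin I, had no read in any of the 11 negative cells. In positive cells it was at 0.179, 3.43 and 74.1 CPM, with 1980 counts in all, and only G1, G2 and G29 passed 10 CPM. All positive cells were above all negative cells, a pattern seen in 25 of 12633 genes (0.198%). With a floor of 3 counts over the negative group, Ncapg was at least 816-fold higher. No read in 11 cells allows a share of cells with a read of up to 28.5% (exact binomial limit, which covers the counting of these cells only). Ncaph, the kleisin that closes the condensin I ring, was at 3.78, 31.7 and 45.0 CPM in positive cells. It was at 0 in 9 of the 11 negative cells, with 0.562 CPM in N5 and 24.2 CPM in N24, which held 98.9% of the counts. The log2 ratio of Ncaph was 3.22 (3.10 to 3.35), or 9.49 without N24.

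Ncapd2, the other HEAT-repeat subunit of condensin I, showed a smaller difference. It was at 4.15, 36.0 and 64.0 CPM in positive cells and at 0, 0.0890 and 61.7 CPM in negative cells. Most negative cells were near 0, but N24 and N28 were as high as the top positive cells. The log2 ratio of 1.08 (1.03 to 1.14) was 2.01 without N28 and fell below 1 without G27, G29, N10, N21, N23, N25 or N30 in turn, reaching 0.85 without N23. It was 0.97 with DESeq2 size factors and 0.94 within title numbers 21 to 30. Ncapd3, which takes the place of Ncapd2 in condensin II, did not follow condensin I. It was at 0, 30.5 and 118 CPM in positive cells and at 0, 0.107 and 212 CPM in negative cells, and the groups overlapped fully. Summed counts were lower in positive cells, 36.9 against 56.5 CPM (log2 ratio -0.61, -0.66 to -0.57), and the value was -1.18 without G29. The log2 ratio was 1.41 among cells with title numbers 1 to 10 and -1.04 among those with 21 to 30. The medians of the cells ran the other way, 30.5 against 0.107 CPM.

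Cohesin differed between the groups gene by gene. Smc1a was at 2.91, 257 and 613 CPM in positive cells and at 0.901, 16.3 and 128 CPM in negative cells. Positive cells fell into 4 from 2.91 to 28.02 CPM and 6 from 247 to 613 CPM, and these 6 were above every negative cell. The log2 ratio was 2.93 (2.89 to 2.96). Rad21, the kleisin cut by separase at anaphase, had reads in every cell at E14.5. It was at 293, 810.1 and 2481 CPM in positive cells and at 31.9, 195 and 1034 CPM in negative cells, where N24 was the highest and the next, N30, was at 343 CPM. Its log2 ratio was 2.13 (2.12 to 2.14).

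Smc3, the partner of Smc1a, was close to equal in sum. It was at 2.50, 371 and 1101 CPM in positive cells and at 0, 289 and 694 CPM in negative cells. The ranges overlapped, and only G1, G10 and G28 among the positive cells were above every negative cell. The log2 ratio was 0.47 (0.45 to 0.48) and -0.04 without G28. Stag2, which binds Rad21, was at 0.375, 33.8 and 179 CPM in positive cells and at 0, 26.7 and 135 CPM in negative cells. Its log2 ratio was -0.30 (-0.35 to -0.26), 0.20 without N28 and 0.16 with equal weights per cell. Like Ncapd3, it took opposite signs by title number, 1.38 within 1 to 10 and -1.18 within 21 to 30. All 4 cohesin members were at 10 CPM or more in 5 of 10 positive and in 6 of 11 negative cells.

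**Figure D1:**
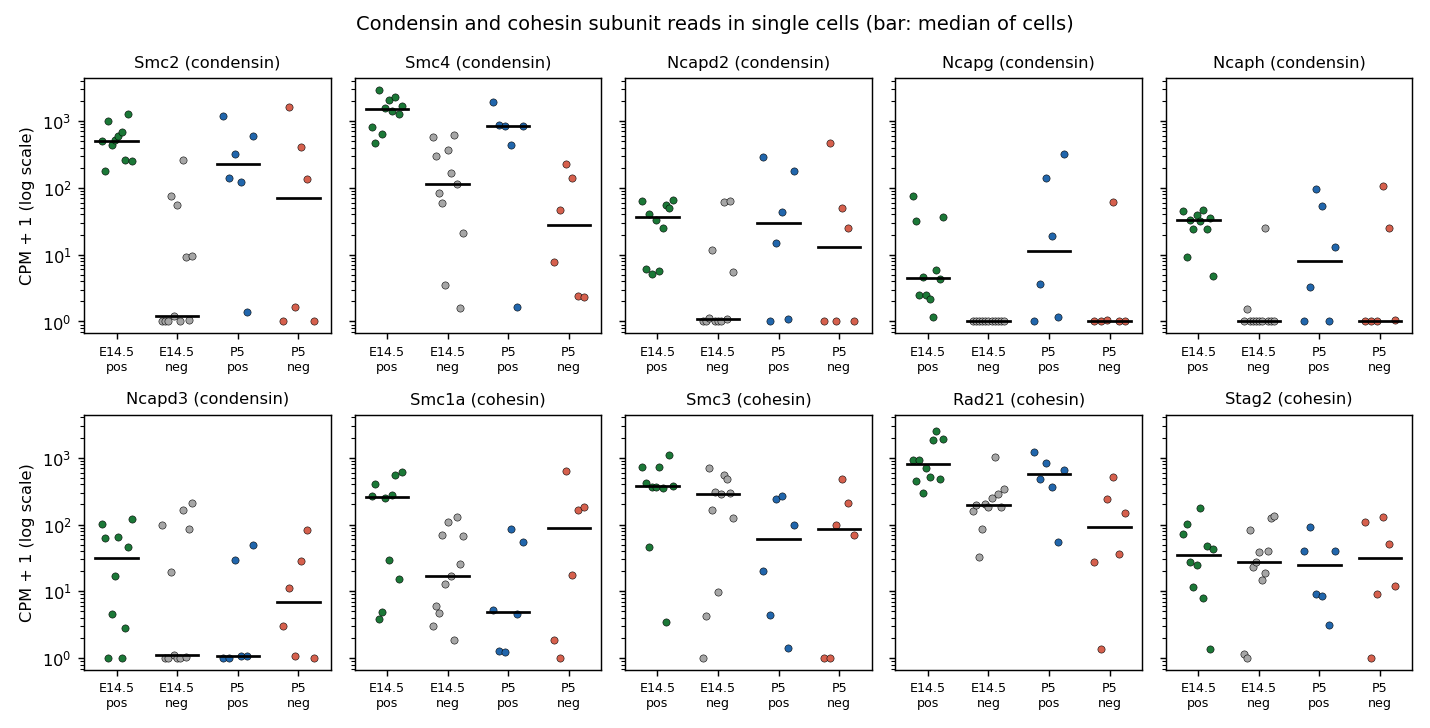
CPM + 1 of each member on a log axis, 1 point per cell and 1 column per group, with a bar at the median cell. Smc2, Smc4 and Ncaph separate most E14.5 positive from E14.5 negative cells, Ncapg is at 0 in all 11 E14.5 negative cells, and Smc3 and Stag2 overlap in all 4 groups.

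Some cells held the whole set of a complex and others parts of it. The 5 subunits of condensin I were all at 1 CPM or more in 9 of 10 E14.5 positive cells and in 0 of 11 E14.5 negative cells. That 0 follows from Ncapg alone, which had no read in any E14.5 negative cell. N24 had Smc2, Smc4, Ncapd2 and Ncaph at 261, 621, 60.5 and 24.2 CPM. At 10 CPM or more all 5 subunits were together in 1 E14.5 positive cell, G1. At P5 all 5 were at 10 CPM or more in 3 of 6 positive cells (L2P7, L2P8 and L2P12) and in 1 of 6 negative cells (L2N9). The 4 cohesin members were at 1 CPM or more in 9 of 10 and 8 of 11 cells at E14.5 and in 3 of 6 and 4 of 6 cells at P5. After thinning, the condensin I counts at 1 CPM were 8 of 9, 0 of 9, 3 of 5 and 1 of 4 cells, in the same order of groups.

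Summed per cell, the 6 condensin members came to 756 to 3975 CPM in E14.5 positive cells and to 2.78 to 1129 CPM in E14.5 negative cells. The 4 cohesin members came to 677 to 3086 CPM and to 162 to 1606 CPM. N24 was the highest E14.5 negative cell on both sums. It also had the highest sums of its group for 24 G2/M genes, 2188 CPM, and for 20 S phase genes, 16724 CPM. Its counts were among those of the negative group, as its label gives.

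**Figure D2:**
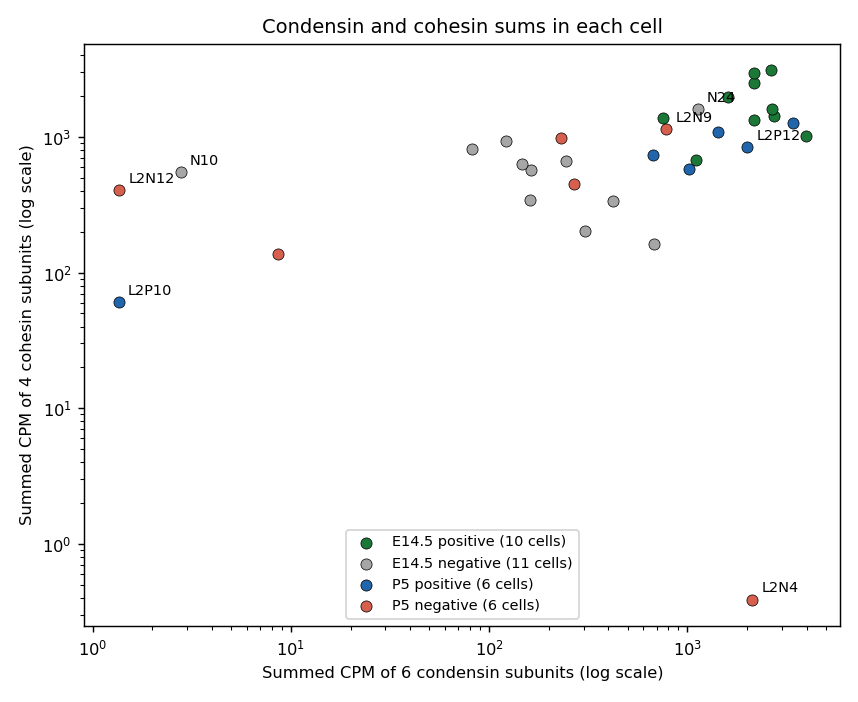
Summed CPM of the 4 cohesin members (y, log axis) against the 6 condensin members (x, log axis), 1 point per cell and 1 colour per group. E14.5 positive cells lie at 756 CPM of condensin or more, and the labelled cells L2P10, L2N4, L2N12, N10, N24, L2N9 and L2P12 are named in the text.

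In the GENCODE annotation of GRCm38, the condensin genes are Smc2 at chr4:52439243-52488260, Smc4 at chr3:69004738-69034623, Ncapd2 at chr6:125168007-125191701, Ncapg at chr5:45669919-45700546, Ncaph at chr2:127103809-127133954 and Ncapd3 at chr9:27030175-27095315. The cohesin genes are Smc1a at chrX:152016428-152062694, Smc3 at chr19:53600398-53645833, Rad21 at chr15:51962240-51991747 and Stag2 at chrX:42149317-42277185. Levels can be compared between genes only per length. Over merged exons (5.48 kb for Smc2, 5.21 for Smc4, 4.23 for Rad21, 5.54 for Smc3, 5.77 for Smc1a, 8.27 for Stag2), E14.5 positive cells had 320.0 CPM per kb of Smc4, 103 of Smc2, 322 of Rad21, 74.5 of Smc3, 52.8 of Smc1a and 5.12 of Stag2. In E14.5 negative cells the same levels were 34.3, 7.51, 73.4, 53.9, 6.94 and 6.31 CPM per kb. How evenly reads covered each transcript was not measured here.

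The second comparison sets P5 positive against E14.5 positive cells, which differ in age and both have reporter signal. The ages share no title prefix, so age and any difference in collection or processing cannot be told apart. This comparison shares the E14.5 positive cells with the first. Smc1a, Smc3, Rad21, Ncapd3 and the condensin SMC pair were lower at P5, Ncapg was higher, and Ncapd2, Ncaph and Stag2 lay within 2-fold. Of the 10 members, 1 was at least 2-fold higher and 6 were at least 2-fold lower, where 30.3% of 12262 genes were higher and 40.9% lower. With equal weights per cell, and also with DESeq2 size factors, the split was 2 higher and 3 lower: Smc2 and Smc4 then lay within 2-fold under both and Ncapd2 was past 2-fold higher, at 1.36 and 1.06. Rad21 also came within 2-fold with equal weights, at -0.82, and Ncapd3 with DESeq2 size factors, at -0.85. Smc2 alone did so with TMM factors, at -0.85, and without the 20 most abundant genes in totals, at -0.99. The median log2 ratio was -0.40 over condensin, -1.52 over cohesin and -0.39 over all genes. The condensin median was thus at that of all genes, and the cohesin median below it. Leaving out L2P12, the P5 positive cell led by endothelial markers, gave -0.99 for condensin, -1.53 for cohesin and -0.87 for all genes.

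The SMC pair of condensin was still high in most P5 positive cells. Smc2 was at 0.398, 229 and 1181 CPM and Smc4 at 0.636, 846 and 1942 CPM. The low value was L2P10 in each, and the next lowest cells were at 119 and 434 CPM. The log2 ratio to E14.5 positive cells was -1.01 (-1.03 to -0.99) for Smc2, which was -1.68 without L2P12 and above -1 without L2P3, L2P8, L2P10, G5, G25 or G28 in turn, reaching -0.64 without G28. For Smc4 it was -1.37 (-1.38 to -1.35). Ncapd3 was at 0, 0.0772 and 47.9 CPM, above 1 CPM only in L2P7 and L2P12. Its log2 ratio was -1.24, and -2.82 without L2P12, -0.98 without L2P3, -0.74 without L2P8 and -0.67 without G29.

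Ncapg was at 0, 10.4 and 318 CPM in P5 positive cells, against 0.179, 3.43 and 74.1 CPM at E14.5. Its log2 ratio was 3.03 (2.96 to 3.10), but L2P12 held 76.0% of its P5 counts and the ratio was 1.37 without it. In L2P7, a cell led by cardiomyocyte markers, Ncapg was at 138 CPM. Ncapd2 was at 0, 28.3 and 292 CPM at P5, with a log2 ratio of 0.68, and -0.46 without L2P12. Ncaph was at 0, 7.16 and 94.4 CPM with a log2 ratio of 0.22, and -0.32 and -0.26 without L2P7 and L2P8, and -0.06 with equal weights per cell. The direction of both thus changed when 1 cell was left out.

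All 4 cohesin members had lower sums at P5, where the median log2 ratio over all genes was also below 0, at -0.39. Smc1a was at 0.240, 3.99 and 83.9 CPM in P5 positive cells, where it passed 10 CPM only in L2P8 and L2P12. Its log2 ratio was -3.00 (-3.05 to -2.95), the lowest of the members, and -3.97 without L2P8. Smc3 was at 0.398, 58.9 and 271 CPM, with a log2 ratio of -1.59, and -2.33 without L2P8. Rad21 was at 54.0, 568.5 and 1197 CPM, with a log2 ratio of -1.44, or -0.998 without G27, which held 44.4% of its E14.5 counts. Stag2 was at 2.15, 23.5 and 91.9 CPM, with a log2 ratio of -0.53, or -1.32 without L2P3. The ranges of the 2 ages overlapped for all 4.

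L2P10 differed from the other P5 positive cells. Its cardiomyocyte markers summed to 86704 CPM, but its condensin members summed to 1.35 CPM, its cohesin members to 60.2 CPM and the G2/M genes to 16.3 CPM, where the other 5 cells had at least 668, 579 and 11210.4 CPM. Of the 60.2 CPM, 54.0 CPM was Rad21.

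The third comparison sets P5 positive against P5 negative cells. The marker values above show that the groups also differ in cell type, so reporter signal and cell type cannot be told apart. Smc4, Ncapg and Rad21 were higher in P5 positive cells and Smc1a was lower, and the other 6 members lay within 2-fold. These 3 and 1 members compare with 34.2% of 11567 genes at least 2-fold higher and 39.4% at least 2-fold lower. The median log2 ratio was 0.74 over condensin, -0.28 over cohesin and -0.29 over all genes. Among the cells with the title prefix L2 it was 0.55 over condensin and -0.20 over cohesin, and the prefix L1 has 1 cell in each group.

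Smc4 was at 1.31, 26.3 and 229 CPM in P5 negative cells, and 5 of the 6 P5 positive cells were above all of them. The log2 ratio was 2.68 (2.65 to 2.72), and 4.26 without L2N7. Rad21 was at 0.388, 91.7 and 513 CPM in P5 negative cells, with a log2 ratio of 1.41 (1.38 to 1.44). Ncapg was at 0 in 4 of the 6 P5 negative cells and at 0.0352 CPM in L2N7, and L2N9 held 99.8% of the group's counts. The log2 ratio of Ncapg was 3.68 (3.57 to 3.80), with 12.26 without L2N9, 3.08 without L2N7 and 2.02 without L2P12. Smc1a was at 0, 89.2 and 640.3 CPM in P5 negative cells, and its log2 ratio of -2.91 (-2.96 to -2.86) was -1.42 without L2N7 and -3.88 without L2P8.

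The other 6 members depended on single cells. Smc2 had a log2 ratio of 0.67, with 1.76 without L2N4, 0.07 without L2N7 and 0.00 without L2P12. Ncapd2 had 0.69, with 2.50 without L2N4, 0.09 without L2N7, -0.44 without L2P12 and -0.07 with equal weights. Ncaph had 0.78, with 2.68 without L2N9, 0.17 without L2N7, and 1.02 and 1.04 without L2P3 and L2P12. Ncapd3 had -0.26, with 1.54 without L2N10, 0.23 without L2P8, -0.87 without L2N7 and -1.84 without L2P12. Smc3 had -0.10, with 0.50 without L2N9, -0.84 without L2P8, and 0.15, 0.11, 0.02 and 0.02 without L2P3, L2P10, L2P12 and L2N10, and 0.04 with TMM factors. Stag2 had -0.45, with 0.14 without L2N9 and -1.24 without L2P3. Leaving out L2N7, the deepest cell of the group, moved 7 members by over 1.5-fold.

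Cells labelled P5 negative were not uniformly without condensin. L2N9, led by endothelial markers, had all 6 condensin members at 10 CPM or more, a condensin sum of 783 CPM, and 1805 CPM of G2/M genes, the highest of its group. L2N4, also led by endothelial markers, had 2128 CPM of condensin and only 0.388 CPM of cohesin, all of it Rad21, with 22214 CPM of S phase genes. L2N4 had the fewest genes detected of all cells, 2994. L2N12, led by fibroblast and mural markers, had 1.36 CPM of condensin and 407 CPM of cohesin.

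**Figure D3:**
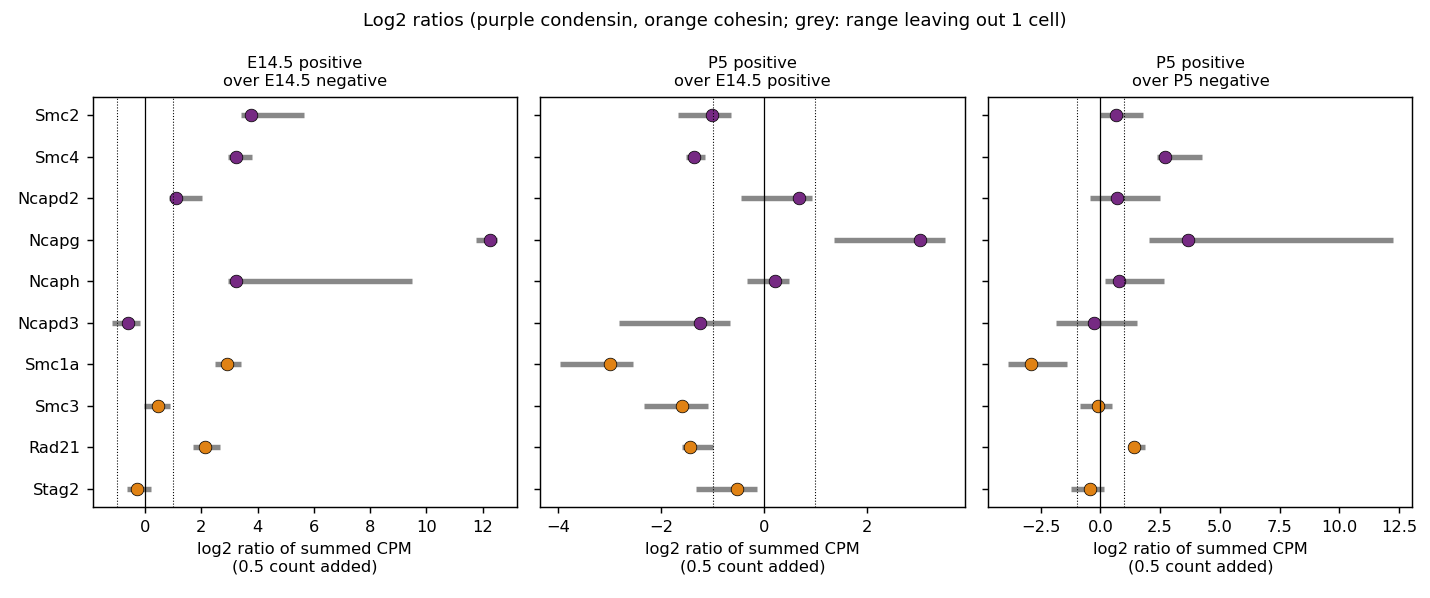
Log2 ratio of summed CPM with 0.5 count added for each member (points: purple condensin, orange cohesin) in the 3 comparisons, with grey bars for the range when 1 cell is left out. Dotted lines mark 2-fold. All 5 condensin I members lie at 1.08 or higher at E14.5 (positive over negative cells). In P5 positive over E14.5 positive cells all 4 cohesin members lie below 0, where the median over all genes was -0.39.

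The order of the groups differed between the members. By summed CPM, Smc2 and Smc4 were highest in E14.5 positive cells, at 565 and 1667 CPM, then in P5 positive cells, at 281 and 646 CPM. Rad21 had the same first places, 1361 and 501 CPM, and then E14.5 negative cells at 311 CPM. Ncapg, Ncapd2 and Ncaph were highest in P5 positive cells, at 102, 65.1 and 31.6 CPM. For Ncapd2 that place rests on L2P12, and for Ncaph on L2P7 and L2P8, as given above, and the median cell of both genes was higher among E14.5 positive cells. Smc1a came first in E14.5 positive cells (305 CPM) and next in P5 negative cells (286 CPM), with 40.0 CPM for the negative cells of E14.5 and 38.1 CPM for the positive cells of P5. L2N7 held 76.6% of the P5 negative counts of Smc1a, and the median P5 negative cell was at 89.2 CPM. Smc3 was at 413 and 299 CPM in positive and negative cells of E14.5 and at 137 and 147 CPM in those of P5. Stag2 was at 42.4 and 52.2 CPM, then at 29.3 and 40.0 CPM, in the same order. The per-cell ranges of neighbouring groups in these orders overlapped for every member.

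Partners and regulators of the complexes, with other chromosome genes, were described by a wider list of 30 genes, of which 29 were in the table. The other genes are Smc5, Smc6, Nsmce1, Nsmce2, Ndnl2 and Nsmce4a of a separate SMC complex, and Top2a, Mki67 and Kif4 of the chromosome axis and periphery. In positive over negative cells at E14.5, 28 wider genes had at least 10 counts. Of the 28, 13 were at least 2-fold higher and 3 at least 2-fold lower, with a median log2 ratio of 0.88. Over all genes, 22.4% were higher and 29% lower, with a median of -0.16. The 13 include Nsmce1, Nsmce2, Top2a, Mki67 and Kif4, whereas Smc5, Smc6, Ndnl2 and Nsmce4a lay within 2-fold. The counts and the median thus do not describe partners and regulators alone. The 3 highest with at least 10 CPM in a group act at the metaphase to anaphase transition or protect cohesion. Espl1, the separase that cuts Rad21, was at 17.1 CPM in positive cells and had no read in negative cells, at least 1115-fold higher against the floor. Sgol1 (shugoshin, current symbol Sgo1), which shields centromeric cohesin, was at 73.0 against 0.153 CPM, with every negative-group read in N24. Its log2 ratio of 8.90 was 14.62 without N24. Cdca5 (sororin), which keeps cohesin on replicated chromatin, was at 27.9 against 0.271 CPM, a log2 ratio of 6.68 that was 13.23 without N24.

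The lowest 3 were Wapal (current symbol Wapl), which releases cohesin from chromatin, at 15.4 against 105 CPM, Esco1, a cohesin acetyltransferase, at 10.2 against 20.9 CPM, and Smc5, of the third SMC complex, at 51.2 against 98.5 CPM. Their log2 ratios were -2.77, -1.03 and -0.94. Leaving out 1 cell gave -2.26 for Wapal (N23), -0.53 for Esco1 (N28) and -0.36 for Smc5 (N24). Esco2, the acetyltransferase used in S phase, went the other way from Esco1, 63.2 against 15.1 CPM. Its log2 ratio of 2.07 was 10.95 without N24, which held 99.8% of the negative-group counts of Esco2. Of the condensin II partners of Ncapd3, Ncapg2 was at 32.9 against 5.32 CPM (log2 ratio 2.63, 4.84 without N24) and Ncaph2 at 6.57 against 6.67 CPM. Stag1, the alternative to Stag2, was at 89.0 against 74.1 CPM, a log2 ratio of 0.26 that was 1.39 without N24. The loader Nipbl was at 59.1 against 31.8 CPM, a log2 ratio of 0.89 that was 0.29 without G28.

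In P5 positive over E14.5 positive cells, 6 of 27 wider genes were at least 2-fold higher and 9 at least 2-fold lower, with a median of -0.26, against 30.3% higher, 40.9% lower and a median of -0.39 over all genes. Ncaph2 was at 109.5 CPM at P5 against 6.57 CPM at E14.5, a log2 ratio of 4.06 and of 2.80 without L2P12. Esco2 was at 6.87 against 63.2 CPM, a log2 ratio of -3.20 and of -5.80 without L2P7. In P5 positive over P5 negative cells, 13 of 25 wider genes were higher and 3 lower, with a median of 1.53, against 34.2% higher, 39.4% lower and a median of -0.29 over all genes. Genes of germ-cell cohesin were low but not all absent. Smc1b had 1 read in 1 E14.5 positive cell. Rec8 summed to 1.48 CPM in E14.5 positive cells, where G29 was highest at 9.68 CPM, and to 0.624 CPM in negative cells of that age. Stag3 had no read in E14.5 positive cells and 2.17 CPM in the negative ones, where N25, at 18.8 CPM, held 99.8% of its counts.

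**Figure D4:**
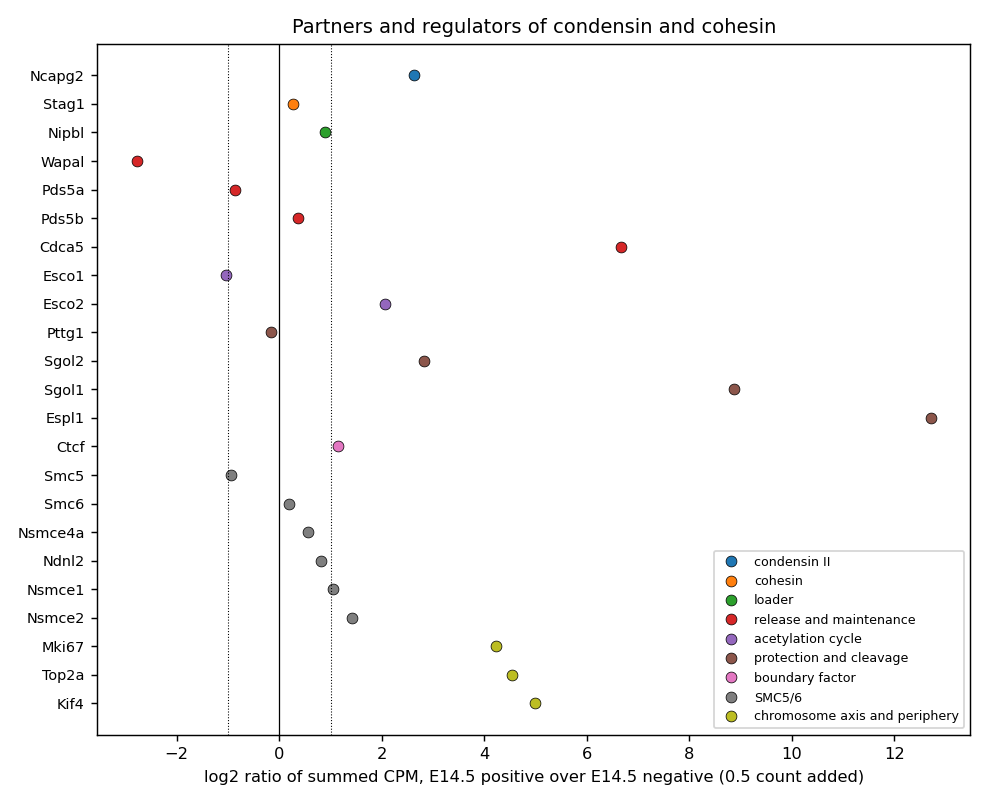
Log2 ratio of summed CPM (x, 0.5 count added), positive over negative cells at E14.5, for the 23 genes of the wider list with at least 10 CPM in either group, coloured by role. Genes of protection and cleavage span from Pttg1 at -0.17 to Espl1 at 12.71, and Wapal is lowest at -2.77.

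Genes whose levels ran most like the members were ranked over all 33 cells among 7015 genes, by the Spearman coefficient with the mean log2(CPM + 1) of each complex. Those most like condensin were Kif15 at 0.845, Kif18a at 0.824, X2810417H13Rik at 0.822, Cep55 at 0.803 and Ndc80 at 0.801. Those most like cohesin were Crebzf at 0.727, Ick at 0.707, Fbxo11 at 0.685, Golim4 at 0.674 and Xrn2 at 0.671. The 33 cells include all 4 groups and differ in depth and cell type, which these values share. Within the 10 E14.5 positive cells alone, coefficients ran from -0.05 to 0.50 for the genes most like condensin. They ran from 0.59 to 0.78 for those most like cohesin. These 10 cells are among the 33 used for the ranking, so the values are no separate check of it.

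Within the 10 E14.5 positive cells, the Spearman coefficient between subunits of a complex took both signs. It was 0.30 between Smc2 and Smc4, 0.71 between Smc2 and Ncaph, -0.71 between Smc2 and Ncapg, and -0.13 between Smc1a and Smc3. With the sum of G2/M genes the coefficient was 0.83 for Rad21, 0.64 for Smc4, 0.49 for Ncapd2, 0.31 for Smc1a, 0.30 for Smc2 and 0.14 for Ncaph. It was -0.32 for Ncapg, -0.34 for Ncapd3, -0.39 for Stag2 and -0.48 for Smc3, so members of both complexes went both ways. Depth was shared in these relations: the G2/M sum had a coefficient of 0.79 with total counts, Rad21 0.64 and Smc4 0.54.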

How the data were processed

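Single ventricular cells were profiled in 33 samples. The authors deposited raw read counts for 14862 gene rows, whole numbers with a different total in each cell. Per the submitters' processing notes, CASAVA 1.8.2, STAR 2.4.0j and HTSeq 0.6.1p1 were used with the build mm10; the order of steps, the annotation, strand handling and the treatment of amplification duplicates are not given in the sources used here. Per the labels' protocols, the RNA of each cell was amplified as antisense RNA, so reads are not independent molecules. All Poisson and binomial intervals, at 95%, and all floors cover counting error only.

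Group levels are the pooled reads of a gene over the pooled reads of all genes, per 1000000 (CPM). Ratios have exact (Clopper-Pearson) intervals. Counts of genes past 2-fold and medians used 0.5 count added to each side and genes reaching 10 counts in the 2 groups combined; printed ratios of single genes have no added count, and values without 1 cell have 0.5 added. A group with no read was given a floor of 3 counts over the group. Each sample is 1 cell and no label names an animal, so a group counts as 1 sample and groups were not tested against each other. Shares of cells were also computed after thinning each cell to 8671357 counts, which left out 6 cells.

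The 10 members and all gene lists were chosen with earlier results of these data known. All members are named. Of the wider list, the 3 highest and 3 lowest log2 ratios of positive over negative cells at E14.5 are named, among genes with at least 10 CPM in a group. The genes most alike are the 5 with the highest Spearman coefficient to the mean log2(CPM + 1) of the condensin or cohesin members. Other genes and cells were chosen after their values were seen. Of the wider list, 29 of 30 symbols were in the table. Row names that a spreadsheet had turned into dates were kept in totals and left out of the ranking. Promoter letters are RefSeq's for GRCm38.p6, gene positions and exon lengths GENCODE's for GRCm38.

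Alternatives were equal weights per cell, edgeR 4.0.16 TMM factors, DESeq2 1.42.0 size factors, totals without the 20 most abundant genes, a minimum of 100 counts, thinning, leaving out each cell, and leaving out cells led by other markers. The ratio calculation was tested on simulated Poisson counts pooled per group. These had no spread between cells, so that test checks the arithmetic only. Python 3.11.15, numpy 2.4.6, pandas 2.3.3, scipy 1.17.1, matplotlib 3.10.9 and R 4.3.3 were used.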

Additional observations from a re-analysis of the deposited data

Results flagged for a closer look

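A single cell stood apart from its group, by Dixon's 95% limit, in 7 of the 30 combinations of a member and a group of 6 or 10 cells that were examined, where a limit passed by chance in 1 of 20 groups would give about 1.5. That number assumes values with a normal spread and is only a guide here, since these are unlogged CPM with many values at 0 and the P5 negative cells are of mixed marker types. The limit was applied to groups of 6 or 10 cells only, so the 11 E14.5 negative cells were not examined. Among them, N24 was at 24.2 CPM of Ncaph, with the next cell at 0.562 CPM. Smc2 in N24 was at 261 CPM with the next at 74.9 CPM, and Rad21 at 1034 CPM with the next at 343 CPM. In P5 negative cells, L2N4 was at 1598 CPM of Smc2, with the next cell at 403 CPM, and at 473.9 CPM of Ncapd2, with the next at 49.3 CPM. L2N9 was at 59.8 CPM of Ncapg, with the next at 0.0352 CPM, and at 106.4 CPM of Ncaph, with the next at 24.5 CPM. L2N10 was at 82.3 CPM of Ncapd3, with the next at 27.1 CPM. L2N7 was at 640.3 CPM of Smc1a, with the next at 179 CPM. Among E14.5 positive cells, G1 was at 74.1 CPM of Ncapg, with the next at 35.2 CPM. Of the 7 values, 6 thus came from P5 negative cells, which were led by different sets of markers, with the E14.5 negative cells left out.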

How the results depend on the processing

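In positive over negative cells at E14.5, the condensin and cohesin medians were 3.22 and 1.30. They were 3.10 and 1.18 with DESeq2 size factors, 3.08 and 1.28 without N10, 4.20 and 1.76 within title numbers 1 to 10, and 2.93 and 1.28 within 21 to 30, a split chosen after seeing the data. The cohesin median was 1.36 with equal weights and 1.34 with TMM factors. Leaving out 1 cell gave 2.94 (N28) to 4.72 (N24) for condensin and 1.12 (G28) to 1.66 (N24) for cohesin. The count of members at least 2-fold higher stayed at 6 to 9 of 10, and the count lower was 2 within titles 21 to 30 and 0 to 1 without 1 cell.

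In P5 positive over E14.5 positive cells, the medians were -0.30 and -1.44 with equal weights, -0.24 and -1.36 with TMM factors, and -0.013 and -1.13 with DESeq2 size factors, and condensin was -0.99 without L2P12. Leaving out 1 cell gave -0.99 (L2P12) to -0.18 (G28) and -1.81 (L2P8) to -1.32 (L2P10). Counts were 2 higher and 3 lower with equal weights and with DESeq2 size factors, and 4 to 6 lower without 1 cell. The median of all genes moved from -0.39 to -0.23 with TMM and -0.0023 with DESeq2 factors. These factors shift all genes of a comparison alike, so condensin minus that median stayed at -0.011 under both by construction. That difference was 0.21 with equal weights per cell and -0.12 without L2P12.

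In P5 positive over P5 negative cells, the medians were 0.22 and -0.56 with equal weights, 0.88 and -0.14 with TMM factors, 0.82 and -0.19 without the 20 most abundant genes in totals, and 0.55 and -0.20 within the title prefix L2, also chosen after seeing the data. Leaving out 1 cell gave 0.13 (L2N7) to 2.13 (L2N4) and -0.64 (L2N7) to 0.32 (L2N9), with 3 to 5 members higher and 1 to 2 lower. Leaving out cells led by other markers could not be run here, since no P5 negative cell was left. Thinning moved the shares of P5 negative cells with 10 CPM of Smc1a, Smc3 and Rad21 to 100%, since it left out L1N3 and L2N4. Of 170 values of single members under settings other than leaving out 1 cell, 22 had another sign or another side of 2-fold. The cause was not tested for any of these moves. No paired analysis was possible because the results come from no test. Some title numbers occur in groups that were compared, but the labels tie no number to an animal or a day.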
